A study of Mus musculus with 12 samples.

Results

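The 38 genes described here belong to mitochondrial and peroxisomal fatty acid oxidation, ketone body metabolism and the target set of the nuclear receptor PPAR alpha. They were taken as a list of symbols and matched by Ensembl identifier to the 54839 features of the expression table. All 38 were found and all 38 passed the filter on low counts. The rule that lists them uses no measured value, but the list was chosen with earlier results of these data known.

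Fatty acids enter mitochondria as carnitine esters and are shortened there by a repeating cycle of dehydrogenation, hydration, dehydrogenation and thiolysis. Very long and branched chains are first shortened in peroxisomes. In hepatocytes the acetyl-CoA that is produced feeds the citric acid cycle and ketone body synthesis. PPAR alpha binds fatty acids, pairs with the retinoid X receptor on DNA and is known for switching on many of these genes in the fasted liver.

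The libraries were bulk RNA-seq of hepatocytes sorted from male mice heterozygous for p16-Tom, in which the p16 promoter drives CreERT2 and an R26-CAG-LSL-tdTomato allele reports its activity. The mice were C57BL/6, received corn oil or CCl4 (1 mL/kg, 20% in corn oil) by intraperitoneal injection for 4 weeks, and all received tamoxifen (80 mg/kg). Their age was not given in the sources used here. Live tdTomato-positive (Tom+) and tdTomato-negative (Tom-) cells gave 4 groups of 3 libraries: Tom- oil, Tom+ oil, Tom- CCl4 and Tom+ CCl4. The p16 promoter is not restricted to hepatocytes, and tdTomato marks past as well as present Cre activity. The labels number the libraries but do not say whether they came from separate mice, so the p-values measure the spread between these libraries, which may be technical.

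Total counts were 37568584 to 75331424 per library. The 8 hepatocyte markers summed to 95222 to 139598 counts per 1000000 (CPM) in every library. Tdtomato reads went against the label of 2 oil libraries. Tom- oil library 1 had 1793 CPM of the reporter, against 157 and 143 CPM in Tom- oil libraries 2 and 3. Tom+ oil library 2 had 135 CPM, against 1546 and 1225 CPM in Tom+ oil libraries 1 and 3. In CCl4 the reporter was 119.6 to 263 CPM in Tom- and 1316 to 1369 CPM in Tom+. Calls that rest on the oil libraries are therefore given with and without those 2 libraries. For fits by pair, which would keep 1 oil pair, the counts are given with each pair left out. In bulk libraries fewer cells of a type and less RNA per cell cannot be told apart.

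Of the 38 genes, 32 had a promoter window in the RefSeq table of GRCm38.p6, covering 250 bases before and 50 bases after the start. These windows were searched on both strands for 2 copies of AGGNCA in the same orientation and 1 base apart, the arrangement that PPAR alpha and its partner are known to bind. The motif was in 1 of the 32 genes (3.12%), Fabp1, and in 122 of all 27025 genes with a window (0.451%). By window it was in 0.381% of all 32851. It is shown because Fabp1, the liver fatty acid binding protein that carries fatty acids in the cytosol, had the highest level of the 38 genes. The capitals mark the motif, which reads AGGCCATAGGTCA on the opposite strand and ends 55 bases before the RefSeq start. The stretch is chr6:71199629-71199826 on the plus strand and stops where the first exon of Fabp1 begins in the deposited table.
Fabp1: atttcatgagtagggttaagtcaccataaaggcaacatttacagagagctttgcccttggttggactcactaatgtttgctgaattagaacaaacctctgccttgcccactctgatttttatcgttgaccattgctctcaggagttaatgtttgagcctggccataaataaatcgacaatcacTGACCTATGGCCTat
The other 31 windows did not hold these letters, which says nothing of binding elsewhere.

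Levels were compared between genes as transcripts per 1000000 (TPM), computed from counts and the feature lengths in the table. Fabp1 had a mean of 6544 TPM over the 12 libraries and Ehhadh, the bifunctional enzyme of the peroxisomal cycle, 2856 TPM. Acaa2, the mitochondrial thiolase, and Acaa1b, a peroxisomal thiolase, followed at 986 and 798 TPM. The highest carnitine shuttle gene was Crot, the peroxisomal carnitine octanoyltransferase, at 253 TPM, and the highest acyl-CoA dehydrogenase was Acadvl, for very long chains, at 256 TPM. Cpt1a, whose product forms acylcarnitine at the outer mitochondrial membrane, had 154 TPM and Cpt2, which reverses that step inside, 135 TPM. Ppara itself had 50.8 TPM. At the low end were Acot8 (12.8 TPM) and Fgf21, a secreted hormone of the fasting response, at 2.75 TPM. Fgf21 had 14 to 143 counts per library, whereas every other gene had at least 354.

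**Figure D1:**
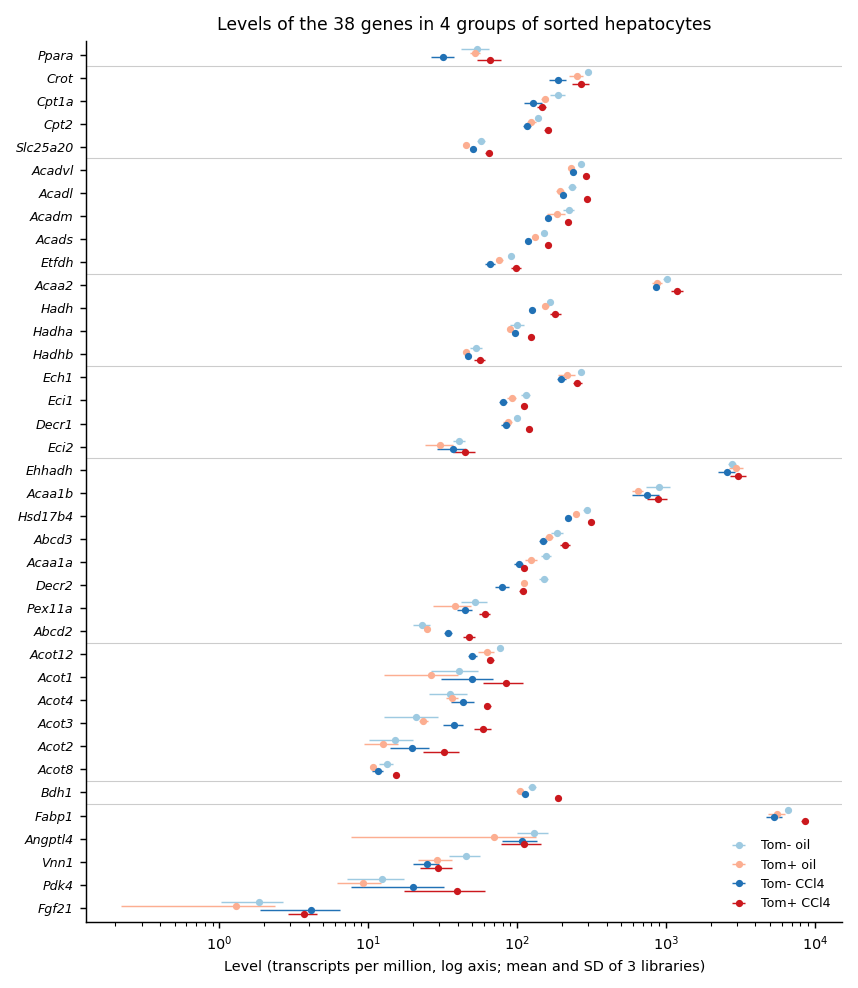
Mean level of each of the 38 genes in TPM (log axis) in the 4 groups, with bars of 1 SD over 3 libraries; grey lines separate the roles, from the receptor at the top to the secreted and other targets at the bottom. Fabp1 and Ehhadh stand highest and Fgf21 lowest in every group, and the distances between groups are small beside the distances between genes.

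The first question was whether p16-labelled hepatocytes of the CCl4-treated liver differed from unlabelled ones in these genes. Ppara was higher in Tom+. Its values were 64.6, 46.0 and 56.5 CPM in Tom- CCl4 libraries 1, 2 and 3 and 115, 85.8 and 90.7 CPM in Tom+ CCl4. The lowest Tom+ value lay above the highest Tom- value. The log2 fold change was 0.80 (SE 0.16, n = 3 against 3), or 1.74-fold, with an adjusted p of 0.0133 by the edgeR quasi-likelihood test. Ppara lies at chr15:85734983-85802819 (mm10). Without Tom- CCl4 library 2 its log2 fold change was 0.68 with an edgeR adjusted p of 0.0742, and without Tom+ CCl4 library 1 it was 0.66 with 0.0501.

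Ppara was the only one of the 38 genes called higher at an adjusted p under 0.05 and a log2 fold change beyond 0.75, where 0.222% of the 17121 genes tested were called higher. None was called lower by edgeR or DESeq2, with 0 lower at an unadjusted p under 0.05, where 1.74% of all genes were called lower by edgeR. By the adjusted p alone 3 genes were higher (background 1.96%) and 0 lower (background 3.83%). Besides Ppara these were Bdh1, the mitochondrial dehydrogenase that interconverts the ketone bodies, and Etfdh, which passes electrons from the dehydrogenases to ubiquinone. The median log2 fold change of the 38 genes was 0.22, with 34 above 0 and 4 below, and that of all genes tested was 0.00.

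Same-numbered Tom+ and Tom- libraries of a treatment deviated together across all genes, so they were also fitted as pairs. As pairs, 20 of the 38 genes (52.6%) were higher in Tom+ CCl4 at an adjusted p under 0.05, where 7.94% of all genes were higher. None of the 38 was lower in that fit, with 0 at an unadjusted p under 0.05, where 9.72% of all genes were lower. With the fold threshold added, 2 were called higher, Ppara and Pdk4 (background 0.736%), and 0 lower (background 3.25%). The count of 20 fell to 9, 3 and 10 when pair 1, 2 or 3 was left out. It was 23, with 1 lower, when the 6 CCl4 libraries were fitted alone. The share of all genes in these refits was not counted. In 28 of the 38 genes Tom+ was above Tom- in 3 of 3 pairs, as it was in 28.2% of all genes. Angptl4 alone was below in 3 of 3 pairs, as were 26.5% of all genes.

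Pdk4, the kinase that turns off pyruvate dehydrogenase, passed as pairs and not without them. Its values were 16.9, 23.7 and 56.2 CPM in Tom- CCl4 and 29.5, 42.3 and 91.0 CPM in Tom+ CCl4. The groups overlapped, with library 3 high in both, and Tom+ was the higher of each pair. In oil they were 10.4, 19.8 and 24.1 CPM in Tom- and 8.29, 15.8 and 17.5 CPM in Tom+. In CCl4 the log2 fold change was 0.74 (SE 0.58, edgeR adjusted p = 0.50) without the pairs and 0.77 (SE 0.08, edgeR adjusted p = 3.71e-05) with them. Without pair 2 the paired value was 0.7465 with an edgeR adjusted p of 0.00265, which is just under the fold threshold.

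Of the 6 acyl-CoA thioesterases, which release free fatty acids from CoA, 4 passed as pairs. Acot1 was 57.7, 80.3 and 131 CPM in Tom- CCl4 and 92.0, 117 and 179 CPM in Tom+ CCl4. Acot2 was 15.1, 17.2 and 27.6 CPM and 20.4, 25.4 and 37.2 CPM in the same groups. In both genes the groups overlapped and Tom+ was the higher of each pair. As pairs the log2 fold changes were 0.55 (SE 0.11, edgeR adjusted p = 0.00393) for Acot1, the cytosolic enzyme, and 0.47 (SE 0.10, edgeR adjusted p = 0.00534) for Acot2, the mitochondrial one. Acot3 and Acot4, which are peroxisomal, passed as well at 0.41 and 0.32. Acot8 and Acot12 did not, at 0.18 (SE 0.11) and 0.17 (SE 0.09). Acot12, the cytosolic enzyme with the highest level of the 6, was 109.5, 107 and 104 CPM in Tom- oil and 82.1, 78.8 and 103 CPM in Tom+ oil, and 70.4, 71.1 and 84.8 CPM in Tom- CCl4 and 84.2, 86.6 and 82.4 CPM in Tom+ CCl4. The groups overlapped in CCl4, and in oil its Tom+ values were below its Tom- values.

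Acot1 to Acot4 lie together on chromosome 12 and share sequence. Of the distinct 100-base windows in the GENCODE M21 transcripts of Acot2, 17.1% were also in those of Acot1, and 9.32% of the windows of Acot1 were in those of Acot2. Counts of Acot1 and Acot3 were not whole numbers in 12 of 12 libraries, so some reads had been divided between features and the share of each gene is uncertain. Acaa1a and Acaa1b are another such pair, with 19.3% of the windows of Acaa1b found in Acaa1a.

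Bdh1 was 202, 184 and 212 CPM in Tom- CCl4 and 280.4, 272 and 293 CPM in Tom+ CCl4. The groups did not overlap. The log2 fold change was 0.50 (SE 0.09, edgeR adjusted p = 0.00936), below the fold threshold. Bdh1 lies at chr16:31422280-31458901, and its exons overlap those of Gm15743 on the other strand. The strand setting of the counting is not known. Fabp1 was 1325, 1171 and 1572 CPM in Tom- CCl4 and 1697, 1906 and 1895 CPM in Tom+ CCl4, again without overlap, at a log2 fold change of 0.43 (SE 0.13, edgeR adjusted p = 0.0610) and an adjusted p of 0.00609 as pairs. In oil Fabp1 was 1597, 1509.6 and 1558 CPM in Tom- and 1206, 1215 and 1571 CPM in Tom+, and the groups overlapped.

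Among the mitochondrial enzymes, 4 of the 5 dehydrogenase and electron transfer genes passed as pairs: Etfdh (0.35), Acadl for long chains (0.30), Acadm for medium chains (0.22) and Acads for short chains (0.20). Acadvl did not pass, at 0.05 (SE 0.06). Its values were 285, 288 and 298 CPM in Tom- CCl4 and 291, 289 and 324 CPM in Tom+ CCl4, so that the groups overlapped. In oil Acadvl was 303, 316 and 299.7 CPM in Tom- and 255, 260.0 and 277 CPM in Tom+, with all Tom+ values below all Tom- values. Of the later steps, Hadh, the short-chain hydroxyacyl-CoA dehydrogenase, passed at 0.28, whereas Hadha, Hadhb and Acaa2 had 0.13, 0.03 and 0.22 and did not pass. Acaa2 was 565, 598 and 629.6 CPM in Tom- CCl4 and 644, 645 and 811 CPM in Tom+ CCl4, and all its Tom+ values were above its Tom- values. In oil Acaa2 was 683, 665 and 601 CPM in Tom- and 548, 529 and 628 CPM in Tom+, with overlap. Of the auxiliary enzymes for unsaturated chains, Decr1 (0.29) and Eci1 (0.24) passed. Ech1 was 195, 194 and 232 CPM in Tom- CCl4 and 209, 214 and 253 CPM in Tom+ CCl4 and did not pass, nor did Eci2. In oil Ech1 was 261, 266 and 249 CPM in Tom- and 199, 188 and 249.9 CPM in Tom+, and the groups overlapped in both treatments.

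In the carnitine shuttle Crot (0.28) and Cpt2 (0.23) passed as pairs. Crot was 522, 447 and 434 CPM in Tom- CCl4 and 619, 571 and 515 CPM in Tom+ CCl4, with 1 Tom+ library below the highest Tom- library. In oil Crot was 729, 699 and 656 CPM in Tom- and 572, 525 and 665 CPM in Tom+. Slc25a20, the carnitine-acylcarnitine carrier, had 0.12 and Cpt1a -0.04, and neither passed. In peroxisomes Hsd17b4, the other bifunctional enzyme, and the membrane transporters Abcd3 and Abcd2 passed at 0.29, 0.26 and 0.23. Ehhadh did not pass: its values were 3495, 3861 and 3155 CPM in Tom- CCl4 and 3438, 3945 and 3245 CPM in Tom+ CCl4, with a log2 fold change of 0.02 (SE 0.06). In oil Ehhadh was 3806, 3208 and 3552 CPM in Tom- and 4111, 3456 and 3787 CPM in Tom+. Its groups overlapped in both treatments. Acaa1a, Acaa1b, Decr2 and Pex11a did not pass either.

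The secreted and other targets differed among themselves. Angptl4, a secreted inhibitor of lipoprotein lipase, was 119, 182 and 222 CPM in Tom- CCl4 and 103, 151 and 206 CPM in Tom+ CCl4. Vnn1, a pantetheinase, was 28.8, 31.0 and 22.3 CPM and 29.7, 31.8 and 20.6 CPM. Fgf21 was 0.960, 1.49 and 3.02 CPM and 1.01, 1.40 and 1.71 CPM. None of these 3 passed in either fit. In oil Fgf21 was 0.527, 0.601 and 1.10 CPM in Tom- and 0.202, 0.343 and 1.05 CPM in Tom+, with library 3 the highest of each group.

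**Figure D2:**
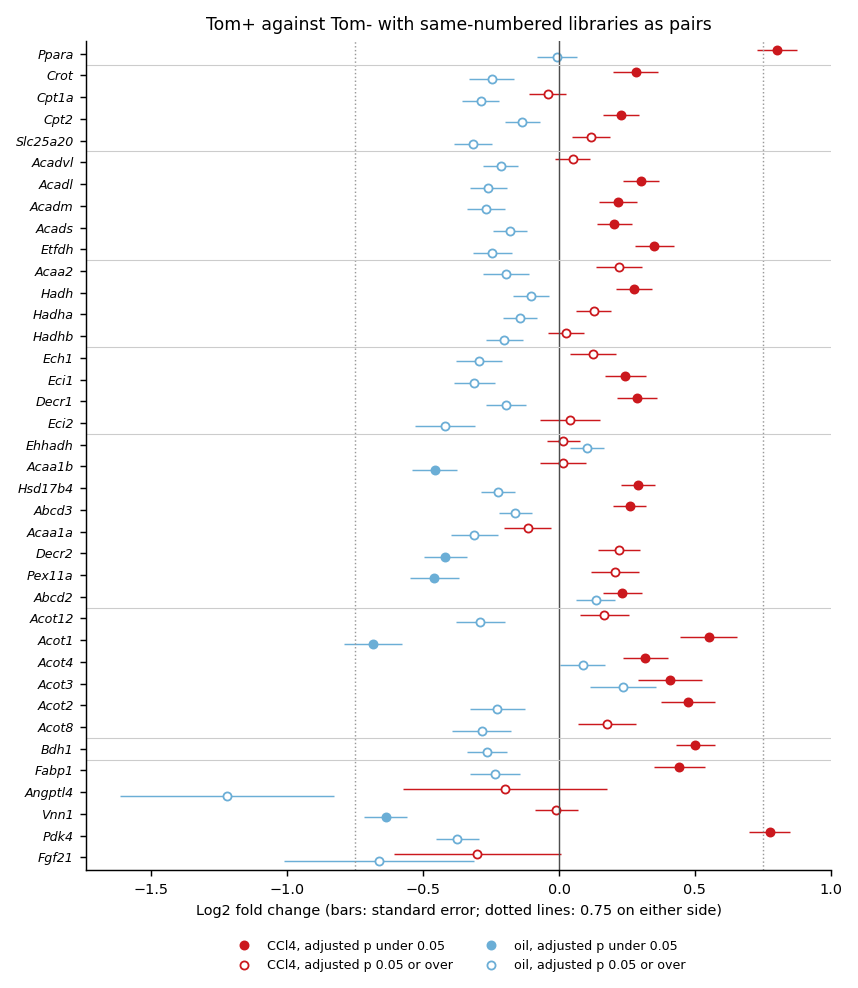
Log2 fold change of Tom+ against Tom- for each of the 38 genes, with same-numbered libraries as pairs, in CCl4 (red) and oil (blue); bars are 1 standard error, filled points have an edgeR adjusted p under 0.05, and grey lines separate the roles. In CCl4 20 genes are filled to the right of 0, with Ppara and Pdk4 beyond 0.75, and in oil 5 genes are filled to the left of 0.

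The same contrast was made in oil, where no injury had been applied. None of the 38 genes was called in either direction by edgeR or DESeq2, and 0.0% of all genes were called by edgeR in either direction, with or without the fold threshold. By DESeq2 1 member was lower at the adjusted p alone. The share of all genes by DESeq2 was not counted, here or in the other comparisons. At an unadjusted p under 0.05 in the edgeR fit 0 of the 38 were higher and 20 were lower. The share of all genes at that unadjusted p was not counted, here or in the other comparisons, so the 20 has no background. The median log2 fold change was -0.25, with 4 above 0 and 34 below, against 0.01 over all genes. Tom+ was below Tom- in 3 of 3 pairs for 27 of the 38 genes, as it was for 15.4% of all genes, and above in 3 of 3 pairs for 2, Ehhadh and Abcd2, as it was for 17.4%.

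As pairs in oil, 5 genes were lower in Tom+ at an adjusted p under 0.05 (background 0.45%) and 0 were higher (background 0.175%), with 0 higher at an unadjusted p under 0.05. With the fold threshold no member was called, lower (background 0.169%) or higher (background 0.0642%). The 5 were Vnn1, Acot1, Pex11a, which takes part in peroxisome division, Acaa1b and Decr2, the peroxisomal dienoyl-CoA reductase. Vnn1 was 35.9, 53.9 and 49.4 CPM in Tom- oil and 20.6, 36.0 and 34.1 CPM in Tom+ oil, a log2 fold change of -0.64 (SE 0.08, edgeR adjusted p = 0.00167). Acot1 was 44.5, 70.0 and 87.0 CPM and 21.9, 42.0 and 70.3 CPM, a log2 fold change of -0.68 (SE 0.11, edgeR adjusted p = 0.0151). In both genes the groups overlapped and Tom+ was the lower of each pair. The count of 5 became 1, 1 and 25 without pair 1, 2 or 3. The 25 rests on pairs 1 and 2, in which the reporter was alike in both libraries (1793 and 1546 CPM, 157 and 135 CPM). The share of all genes in these refits was not counted.

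Only pair 3 in oil has both libraries in accord with the reporter, since Tom- library 1 and Tom+ library 2 go against it. The median difference of the 38 genes between same-numbered libraries, in log2(CPM + 0.5), was -0.338, -0.325 and -0.112 in oil pairs 1, 2 and 3. In the CCl4 pairs it was 0.217, 0.215 and 0.217. Over all genes the median lay between -0.00292 and 0.0142 in the 6 pairs. Without the 2 libraries the unpaired oil contrast called none of the 38 genes, and Vnn1, Acot1 and Decr2 had log2 fold changes of -0.94, -0.79 and -0.41 with edgeR adjusted p-values of 0.604, 0.916 and 0.604.

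**Figure D3:**
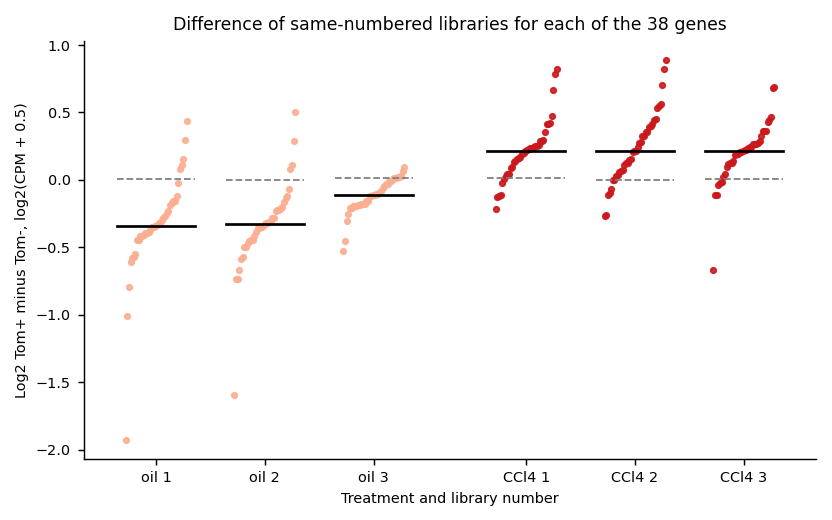
Difference between same-numbered Tom+ and Tom- libraries, in log2(CPM + 0.5), for each of the 38 genes (points, sorted) in the 3 oil pairs and the 3 CCl4 pairs; the black line is the median of the 38 genes and the dashed line that of all 17121 genes. The medians of the 38 genes are below 0 in the oil pairs, nearest to 0 in pair 3, and near 0.22 in the CCl4 pairs.

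Markers of hepatocytes, of other cells and of lobule position also differed between the fractions. The 8 hepatocyte markers summed to 129402 to 139598 CPM in Tom- CCl4 and to 100013 to 111266 CPM in Tom+ CCl4, without overlap, and 7 of the 8 were lower in Tom+ (0 called, median log2 fold change -0.22). In CCl4 the 8 endothelial markers were all lower in Tom+ (6 called), with sums of 323 to 343 CPM in Tom- and 160.5 to 225 CPM in Tom+. The 10 genes of the periportal zone 1 were all lower in Tom+ CCl4 (5 called), with sums of 6271 to 7805 CPM against 4036 to 4929 CPM. The 10 genes of the pericentral zone 3 were all higher (0 called), with sums of 2198 to 5509 CPM in Tom- and 4467 to 9682 CPM in Tom+. In oil the 10 zone 3 genes were all lower in Tom+ (0 called), with sums of 2497 to 6030 CPM in Tom- and 1116 to 3214 CPM in Tom+, and 9 of the 10 zone 1 genes were higher (0 called). In oil the 8 endothelial markers were all higher in Tom+, with sums of 128 to 191 CPM in Tom- and 144 to 237 CPM in Tom+. Of the stellate and fibroblast markers 9 of 10 and of the macrophage and Kupffer cell markers 7 of 8 were also higher in Tom+ oil, and none of these 3 lists had a member called by edgeR. The defining markers of these lists were above 0 in every group. Their part in the differences of the 38 genes was not tested.

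The difference between the 2 fraction contrasts, Tom+ against Tom- in CCl4 minus the same in oil, was tested as an interaction. Bdh1 was the member called higher (background 0.216%) and no member was called lower by edgeR or DESeq2 (background 0.958%), with 0 lower at an unadjusted p under 0.05. Bdh1 was 209, 219 and 199 CPM in Tom- oil and 161, 171 and 191 CPM in Tom+ oil, so that Tom+ was the lower of each pair in oil and the higher of each pair in CCl4. The interaction was 0.76 (SE 0.13, edgeR adjusted p = 0.0163). It was 0.75 with an adjusted p of 0.0427 without the 2 oil libraries whose reporter goes against the label. Leaving out 1 library at a time ended the call for Tom- oil 2, Tom+ oil 1, Tom+ oil 2, Tom- CCl4 2 and Tom+ CCl4 3, with values of 0.71 to 0.75 and edgeR adjusted p-values of 0.0308 to 0.056.

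By the adjusted p alone 4 genes had a positive interaction (background 0.473%) and 0 a negative (background 1.07%). They were Bdh1, Decr2, Etfdh and Hsd17b4. Of the 38 genes 37 had an interaction above 0, with a median of 0.45 against -0.01 over all genes. Fitted as pairs, 25 of the 38 (65.8%) had a positive interaction at an adjusted p under 0.05 (background 5.3%) and 0 a negative (background 7.18%), with 0 negative at an unadjusted p under 0.05. That count was 13 to 31 when 1 pair was left out, and the share of all genes in those refits was not counted. The unpaired median was 0.43 without the 2 oil libraries, and Bdh1 was the member that passed the adjusted p. With the fold threshold 4 were called as pairs, Acot1, Pdk4, Ppara and Bdh1 (background 1.28%), and 0 with a negative sign (background 4.19%). Their interactions as pairs were 1.23 (SE 0.15), 1.15 (SE 0.11), 0.81 (SE 0.10) and 0.77 (SE 0.10). Unpaired and without the 2 oil libraries, Acot1, Pdk4 and Ppara had 1.30, 1.53 and 0.91 with edgeR adjusted p-values of 0.545, 0.560 and 0.113. The member with an interaction below 0 was Ehhadh, at -0.09 (SE 0.09). In the unpaired interaction the 10 zone 3 genes were all above 0 (0 called, median 2.03). The 10 zone 1 genes were all below 0 (4 called, median -1.31), as were the 8 endothelial markers (2 called, median -1.05). Of the 8 hepatocyte markers 6 were below 0 (0 called). The part of these lists in the interactions of the 38 genes was not tested.

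The directions of the pairs were also counted in the 2 treatments together. Tom+ was the higher of 3 of 3 CCl4 pairs and the lower of 3 of 3 oil pairs in 19 of the 38 genes (50.0%), and in 5.61% of all genes. By the reporter, only oil pair 3 sets a high library against a low one. The median difference of the 38 genes was -0.112 there, against -0.338 and -0.325 in oil pairs 1 and 2. These 19 included Cpt2, Acadl, Etfdh, Hadha, Hsd17b4, Decr2, Acot1, Bdh1 and Pdk4. Ppara was not among them, with 71.7, 86.0 and 103 CPM in Tom- oil and 79.9, 81.9 and 95.6 CPM in Tom+ oil. Its groups overlapped in oil, and its log2 fold change there was -0.02 (SE 0.15).

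**Figure D4:**
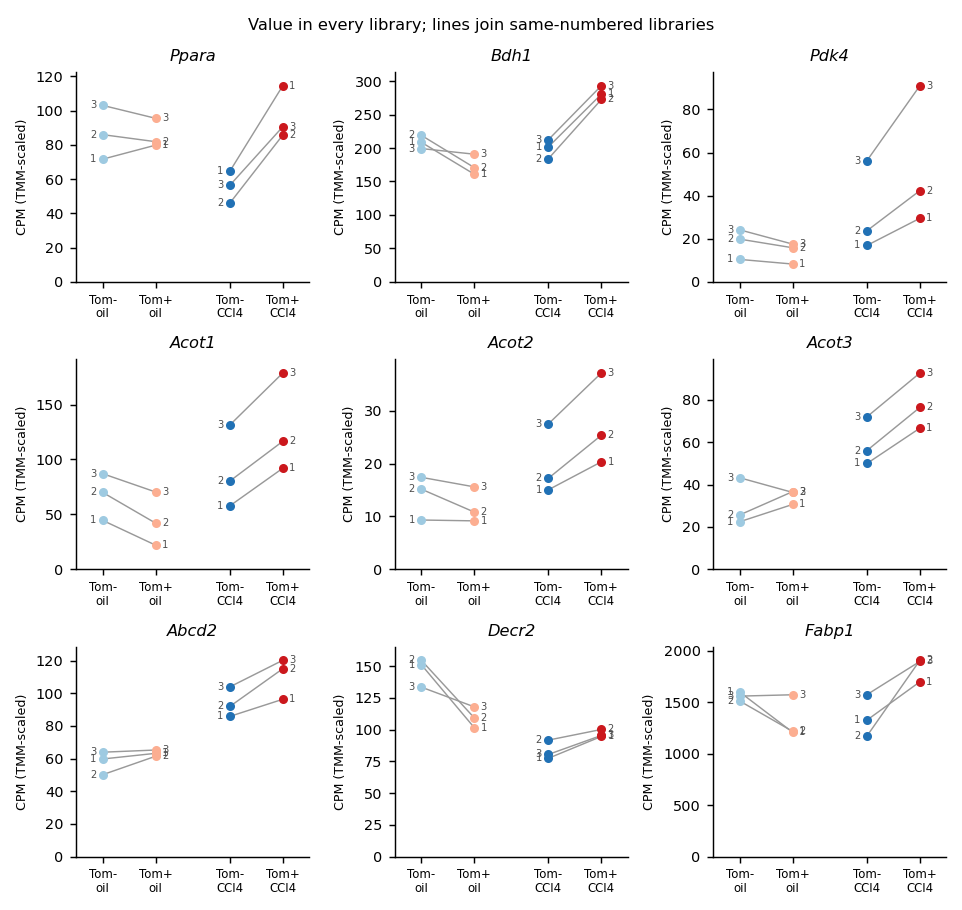
CPM of 9 of the genes in each of the 12 libraries (y axis from 0), with the library number beside each point and a line between same-numbered libraries of a treatment. In CCl4 every line rises from Tom- to Tom+ in all 9 genes, and in oil the lines of Bdh1, Pdk4, Acot1, Acot2 and Decr2 fall.

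The next question was what CCl4 did within each fraction. In Tom- hepatocytes Ppara was lower in CCl4. The log2 fold change was -0.64 (SE 0.16, edgeR adjusted p = 0.0147), and the highest CCl4 value lay below the lowest oil value. Without the 2 oil libraries it was -0.76 with an edgeR adjusted p of 0.0193, past the fold threshold. In Tom+ hepatocytes it was 0.18 (SE 0.15, edgeR adjusted p = 0.527), and the groups overlapped.

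Decr2 was the member called lower in Tom- (background 1.59%). It was 151, 155 and 133 CPM in Tom- oil and 77.4, 91.7 and 80.4 CPM in Tom- CCl4, without overlap, a log2 fold change of -0.82 (SE 0.09, edgeR adjusted p = 1.79e-04). Without the 2 oil libraries it was -0.79 with an adjusted p of 0.0024. In Tom+ Decr2 was 102, 109 and 118 CPM in oil and 94.6, 100.1 and 95.4 CPM in CCl4, a log2 fold change of -0.18 (SE 0.09). Decr2 lies at chr17:26081211-26090329.

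By the adjusted p alone 12 of the 38 genes were lower in Tom- CCl4 (background 6.75%). They were Decr2, Ppara, Crot (-0.57), Cpt1a (-0.45), Acaa1a (-0.50), Acot12 (-0.50), Eci1 (-0.41), Acadm, Etfdh, Hsd17b4, Hadh and Acads. All Tom- oil values of Crot were above all its Tom- CCl4 values. Without the 2 oil libraries the count was 8 (background 3.22%), with Vnn1 among them at -0.91 (edgeR adjusted p = 0.0437). Of these 8, Vnn1, Decr2 and Ppara passed the fold threshold as well (background 1.14%). The median log2 fold change of the 38 genes in Tom- was -0.14, with 30 below 0, against 0.00 over all genes, and -0.15 without the 2 libraries. In the same contrast the 8 endothelial markers were all called higher in Tom- CCl4, with sums of 128 to 191 CPM in oil and 323 to 343 CPM in CCl4. The 10 stellate and fibroblast markers were all higher too (9 called), with sums of 12.1 to 23.4 CPM in oil and 91.3 to 119.97 CPM in CCl4. The part of these markers in the values of the 38 genes was not tested.

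In Tom+ none of the 38 was called lower by edgeR or DESeq2 (background 2.34%), with 1 at an unadjusted p under 0.05, and 0 were lower by the adjusted p alone (background 4.56%; 1 by DESeq2). By that adjusted p 10 were higher (background 4.91%), namely Acot2, Acot3, Abcd2, Bdh1, Acot4, Fabp1, Acadl, Acot8, Slc25a20 and Hadha. The count was 5 without the 2 oil libraries (background 3.09%). The median log2 fold change was 0.27, with 31 above 0, against 0.00 over all genes, and 0.24 without the 2 libraries. In this contrast the 10 zone 3 genes were all higher in Tom+ CCl4 (6 called, median log2 fold change 2.47), with sums of 1116 to 3214 CPM in oil and 4467 to 9682 CPM in CCl4. The 10 zone 1 genes were all lower (6 called), with sums of 7822 to 9243 CPM in oil and 4036 to 4929 CPM in CCl4. The 10 stellate and fibroblast markers were all higher (7 called), with sums of 12.2 to 36.2 CPM and 63.5 to 135 CPM. The part of these lists in the values of the 38 genes was not tested.

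Acot3 was higher in CCl4 in both fractions. It was 22.5, 25.7 and 43.2 CPM in Tom- oil and 50.0, 56.1 and 72.0 CPM in Tom- CCl4, a log2 fold change of 0.96 (SE 0.23, edgeR adjusted p = 0.0170). In Tom+ it was 30.6, 36.7 and 36.3 CPM in oil and 66.7, 76.5 and 92.7 CPM in CCl4, a log2 fold change of 1.19 (SE 0.23, edgeR adjusted p = 0.00902). The oil and CCl4 libraries did not overlap in either fraction. Without the 2 oil libraries the values were 0.79 with an adjusted p of 0.0721 in Tom- and 1.24 with 0.0207 in Tom+. In Tom- the call was also lost without oil library 1, oil library 2 or CCl4 library 3, with adjusted p-values of 0.0545, 0.0633 and 0.0669. Acot3 lies at chr12:84052144-84060402, and its exons overlap those of Gm49366 on the same strand.

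Abcd2, which carries very long chain acyl-CoA into peroxisomes, was 59.7, 50.1 and 63.9 CPM in Tom- oil and 63.2, 61.4 and 65.2 CPM in Tom+ oil. In CCl4 it was 85.8, 91.9 and 104 CPM in Tom- and 96.3, 115 and 120.2 CPM in Tom+. All 6 CCl4 values were above all 6 oil values. The log2 fold change was 0.70 (SE 0.11, edgeR adjusted p = 0.00154) in Tom-, under the fold threshold, and 0.80 (SE 0.11, edgeR adjusted p = 6.67e-04) in Tom+. In Tom+ it was 0.74 without CCl4 library 3. The values were 0.72 and 0.79 without the 2 oil libraries, on the same sides of the threshold. Its interaction was 0.11 (SE 0.16). Abcd2 lies at chr15:91145871-91191799.

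Acot2 was 9.33, 15.2 and 17.4 CPM in Tom- oil and 9.17, 10.8 and 15.6 CPM in Tom+ oil, and was higher in Tom+ CCl4 at a log2 fold change of 1.22 (SE 0.33, edgeR adjusted p = 0.0422). The call was lost without the 2 oil libraries (1.17, adjusted p = 0.102) and without Tom+ oil library 1 or 2 or Tom+ CCl4 library 2 or 3, with edgeR adjusted p-values of 0.0821 to 0.159. Acot2 lies at chr12:83987861-83993873. In Tom+ Acot1 had a log2 fold change of 1.53 (SE 0.49, edgeR adjusted p = 0.0884) and Pdk4 of 1.97 (SE 0.60, edgeR adjusted p = 0.0790), and neither passed. Leaving out the 2 oil libraries gave 1.497 and 2.09 with edgeR adjusted p-values of 0.210 and 0.162. With the library number as a block across the treatments both passed, but between treatments the numbers were not taken as pairs. Same-numbered Tom+ libraries of the 2 treatments correlated at 0.0182 to 0.226, and differently numbered ones at -0.188 to 0.135. How many of all genes passed with that block was not counted. The 3 genes called higher in Tom+ were thus Acot2, Acot3 and Abcd2 (background 2.9%), and Acot3 was called higher in Tom- (background 6.33%), where 2 genes were higher by the adjusted p alone (background 9.37%).

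**Figure D5:**
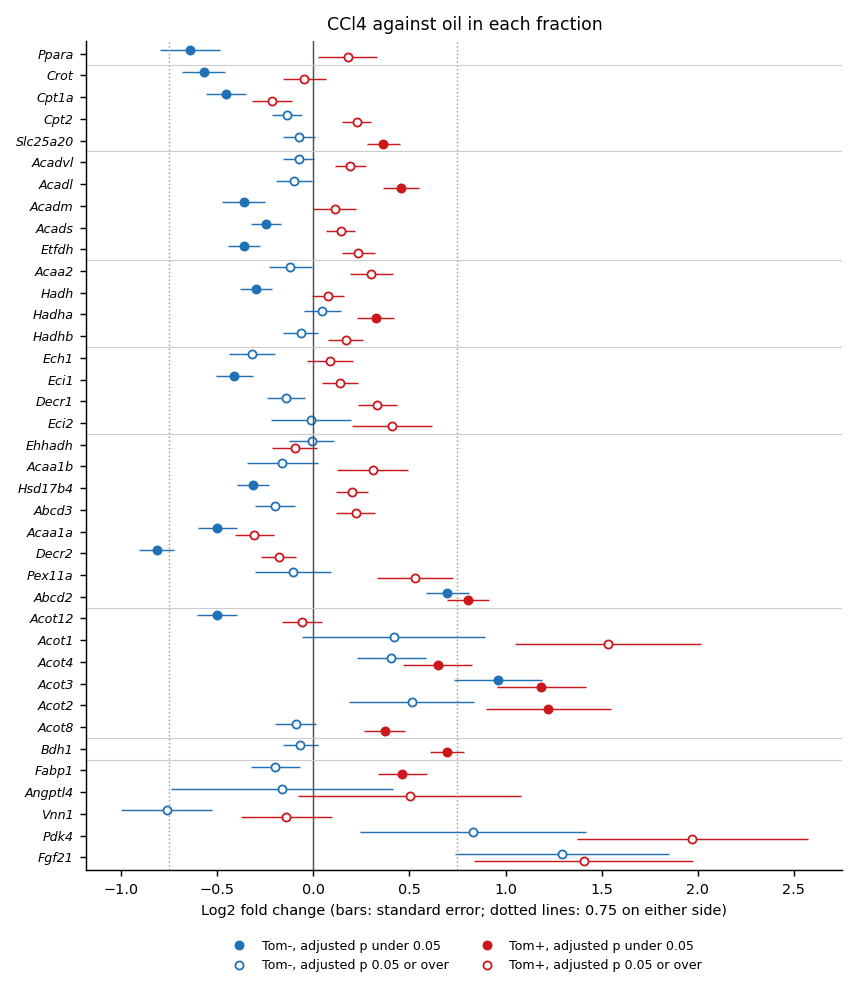
Log2 fold change of CCl4 against oil for each of the 38 genes in Tom- (blue) and Tom+ (red) hepatocytes; bars are 1 standard error, filled points have an edgeR adjusted p under 0.05, and grey lines separate the roles. Filled blue points lie below 0 in 12 genes and above 0 in Acot3 and Abcd2, and the 10 filled red points lie above 0.

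Same-numbered Tom+ and Tom- libraries were also summed within a treatment. By the reporter, both libraries of oil sum 1 were high and both of oil sum 2 were low. In these sums Acot3 and Abcd2 were called higher in CCl4 (background 3.34%), at 1.08 (SE 0.16, edgeR adjusted p = 0.00853) and 0.76 (SE 0.09, edgeR adjusted p = 0.00308). Abcd2 fell under the fold threshold without the sum of CCl4 2, CCl4 3 or oil 2, at 0.70 to 0.75. None was called lower by edgeR or DESeq2 (background 1.44%), with 5 at an unadjusted p under 0.05. By the adjusted p alone Acot4 and Bdh1 were also higher, 4 in all (background 4.95%), and Decr2 and Acaa1a were lower (background 3.24%). The 10 stellate and fibroblast markers were all higher in CCl4 in the sums (8 called), with sums of 12.1 to 36.2 CPM in the oil libraries and 63.5 to 135 CPM in the CCl4 libraries. None of these markers was at 0 in any group, and their part in the CCl4 differences was not tested.

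Some of the 38 genes varied between library numbers as much as between groups. Library 3 was the highest of its group in all 4 groups for 13 of the 38 genes (34.2%) and for 4.74% of all genes, a pattern chosen for description after the values were seen. The 13 were Pdk4, Acot1, Acot2, Acot4, Fgf21, Angptl4, Pex11a, Abcd2, Acadl, Acadm, Hadha, Hadhb and Hsd17b4. Angptl4 was 166, 179.8 and 241 CPM in Tom- oil and 43.3, 59.4 and 222 CPM in Tom+ oil. The 8 macrophage and Kupffer cell markers summed highest in library 3 of each group too, at 75.2 and 113 CPM in Tom- and Tom+ oil, against 15.1 to 27.1 CPM in the other 4 oil libraries. In CCl4 they summed to 116 and 127 CPM in library 3 and to 47.7 to 91.9 CPM in the others. No marker of that list was at 0 in any group, and its part in the values of library 3 was not tested.

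A wider list of 89 other genes of fatty acid uptake, activation, oxidation, omega oxidation, ketone body synthesis, peroxisomes and PPAR cofactors was examined beside the 38. Of these, 88 were matched and 87 passed the filter. In CCl4 2 of the 87 (2.3%, background 0.222%) were called higher in Tom+ and 1 (1.15%, background 1.74%) lower. As pairs the counts were the same, and by the adjusted p alone 19 (21.8%, background 7.94%) were higher and 9 (10.3%, background 9.72%) lower. Pparg, the receptor that drives lipid storage in fat cells, was 4.60, 5.17 and 5.09 CPM in Tom- CCl4 and 10.8, 10.5 and 7.83 CPM in Tom+ CCl4, a log2 fold change of 0.97 (SE 0.22, edgeR adjusted p = 0.0230). Aldh3a2, the fatty aldehyde dehydrogenase, was 258, 289 and 357 CPM and 463, 517 and 557 CPM, a log2 fold change of 0.76 (SE 0.19, edgeR adjusted p = 0.0347). Cpt1b, the muscle form of Cpt1a, was lower at -1.17 (SE 0.29, edgeR adjusted p = 0.0326).

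Pparg and Aldh3a2 were also the 2 of the 87 called in the interaction without pairs (2.3%, background 0.216%), at 1.99 (SE 0.31, edgeR adjusted p = 0.0106) and 1.40 (SE 0.27, edgeR adjusted p = 0.0304). In oil Pparg was 9.81, 13.9 and 9.34 CPM in Tom- and 3.86, 7.14 and 5.39 CPM in Tom+. Within fractions it was lower in CCl4 in Tom- (-1.16, SE 0.22, edgeR adjusted p = 0.00443) and higher in Tom+ (0.83, SE 0.22, edgeR adjusted p = 0.0282). Its interaction without the 2 oil libraries was 2.31 (edgeR adjusted p = 0.0181) and that of Aldh3a2 1.65 (0.0270), and Pparg was at -1.23 in Tom- and 1.08 in Tom+.

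As pairs, 6 of the 87 (6.9%, background 1.28%) had a positive interaction past both thresholds and 1 (1.15%, background 4.19%) a negative. The 6 were Pparg, Aldh3a2, Fitm1, a lipid droplet protein, and the fatty acid omega-hydroxylases Cyp4a12a, Cyp4a31 and Cyp4a14, and the 1 was Cpt1b. In oil none of the 87 was called without pairs, with or without the 2 libraries. As pairs 5 (5.75%, background 0.169%) were called lower in Tom+ oil and 0 higher. Their log2 fold changes were -1.03 for Pparg, -0.93 for Cyp4a31, -0.87 for Cyp4a14, -0.83 for Cd36, which takes up fatty acids at the cell surface, and -0.82 for Fitm1. Cyp4a14 was 484, 763 and 486 CPM in Tom- oil and 213, 413 and 331 CPM in Tom+ oil, with Tom+ the lower of each pair. In oil pairs 1 and 2 the reporter was alike in both libraries of the pair (1793 and 1546 CPM, 157 and 135 CPM). The paired counts of the 87 were not taken with a pair left out.

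Between treatments in Tom-, 3 of the 87 (3.45%, background 6.33%) were called higher in CCl4 and 6 (6.9%, background 1.59%) lower. In Tom+ 6 (6.9%, background 2.9%) were called higher and 5 (5.75%, background 2.34%) lower. Without the 2 oil libraries 3 (3.45%, background 4.32%) were called higher and 5 (5.75%, background 1.14%) lower in Tom-. In Tom+ 4 (4.6%, background 2.09%) were then called higher and 5 (5.75%, background 1.42%) lower. Lpl, the lipoprotein lipase, rose in both fractions. Its log2 fold changes were 3.83 (SE 0.68, edgeR adjusted p = 0.00724) in Tom- and 4.32 (SE 0.68, edgeR adjusted p = 0.00636) in Tom+. Those of Fabp4, the fatty acid binding protein of fat and endothelial cells, were 2.25 and 1.41. All 10 stellate and fibroblast markers were also higher in CCl4 in both fractions. Of the 8 macrophage and Kupffer cell markers 8 were higher in Tom- and 7 in Tom+ (0 called). Of the 8 endothelial markers 8 were higher in Tom- and 4 in Tom+. The part of these markers in the rises of Lpl and Fabp4 was not tested. Acacb, which makes the malonyl-CoA that inhibits carnitine palmitoyltransferase, rose at a log2 fold change of 0.93 in Tom-. In Tom+ the log2 fold changes were 1.42 for Cyp4a31, 1.28 for Aldh3a2 and 1.25 for Crat, the carnitine acetyltransferase. Fitm1 fell by 4.10 in Tom- and by 2.58 in Tom+ on the log2 scale, and Acad12 fell by 1.18 and 1.10. Also called lower were Fabp2, Cyp4a12a and Cyp4a14 in Tom- and Ppargc1b, Bdh2 and Acox2 in Tom+. When the 2 oil libraries were left out, Fabp4 and Crat in Tom+ and Cyp4a14 in Tom- no longer passed, with edgeR adjusted p-values of 0.127, 0.0749 and 0.0703.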

How the data were processed

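Poly-A RNA of sorted hepatocytes was sequenced as strand-specific libraries, 3 in each of 4 groups. Per the labels, the submitters' processing notes name the mm10 build and the tools HISAT2 (v2.1.0) for alignment, fastp (v0.23.2) for read quality and DESeq2 (v1.42.1). The counting program and its strand setting are not given in the sources used here. The authors deposited expected counts per feature, not normalized, with 30.4% to 32.9% of non-zero values not whole in a library. They were rounded to whole numbers, whereas the design had assumed whole counts. All sample columns were used.

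Counts were analysed with edgeR (v4.0.16) in R (v4.3.3), using TMM normalization, filterByExpr (17121 genes kept) and robust quasi-likelihood tests, with all 12 libraries in a shared model of the 4 groups. Adjusted p-values are Benjamini-Hochberg values over all genes tested. A gene was called at an adjusted p under 0.05 and a log2 fold change beyond 0.75. Standard errors were derived from the quasi-likelihood F statistic. CPM are TMM-scaled. Same-numbered libraries were summed within a treatment for a further CCl4 contrast (17743 genes).

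Residuals of same-numbered Tom- and Tom+ libraries correlated across genes (r = 0.247, 0.187 and 0.401 in CCl4, 0.205, 0.231 and 0.318 in oil). The numbers, taken from the labels, were therefore treated as pairs within a treatment, and fits with the pair as a block are given where they change a result. Between treatments the numbers were not taken as pairs.

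Every one of the 38 genes may be named. Those called in any comparison and the one with the highest TPM in each role are given in every library, and of the wider list the called genes with a mean of at least 1 CPM, at most 6 in each direction. The 38 genes, the lists and the comparisons were chosen with earlier results of these data known. Alternatives were DESeq2 (v1.42.0), another normalization, no filter, subsets of the libraries, the block and leaving out each library. Those without the 2 oil libraries and the block without the fold threshold were chosen after seeing the data. The code was tested on simulated data.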

Additional observations from a re-analysis of the deposited data

Results flagged for a closer look

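Whether the difference between Tom+ and Tom- differed between CCl4 and oil was tested as an interaction. It was called in 1 of the 38 genes, Bdh1, without the pairs, and in 4 with the pairs as a block. For Bdh1 the interaction was 0.763 on the log2 scale without the pairs, where 0.216% of all genes were called, and 0.767 with the library pairs as a block. The unpaired call of Bdh1 was lost when any 1 of 5 libraries was left out. With the block it was also past both thresholds for Acot1 (1.23), Pdk4 (1.15) and Ppara (0.811), where 1.28% of all genes were. In Bdh1, Acot1 and Pdk4 Tom+ was the higher of 3 of 3 CCl4 pairs and the lower of 3 of 3 oil pairs, and in Ppara it was the higher of 3 of 3 CCl4 pairs and the lower of 2 of 3 oil pairs. The oil part of each value rests on libraries of which 2 go against their label by the reporter. Unpaired and without those 2 libraries, Acot1, Pdk4 and Ppara had edgeR adjusted p-values of 0.545, 0.560 and 0.113, and Bdh1 had 0.0427. In the unpaired interaction the 10 zone 3 genes were all above 0 and the 10 zone 1 genes all below 0. Their part in the interactions of the 38 genes was not tested.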

How the results depend on the processing

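The counts of the 38 genes called depended most on the fold threshold and on the block. Without the fold threshold the counts were 3 higher for Tom+ against Tom- in CCl4, 2 higher and 12 lower for CCl4 in Tom-, 10 higher for CCl4 in Tom+, 4 higher and 2 lower in the sums, and 4 higher in the interaction. With the replicate block they were 2 higher in the CCl4 fractions, 2 higher and 2 lower for CCl4 in Tom-, 6 higher for CCl4 in Tom+ and 4 higher in the interaction. With the block and no fold threshold, 20 were higher in the CCl4 fractions, 5 lower in the oil fractions and 25 higher in the interaction. DESeq2 called 2 lower for CCl4 in Tom-, 5 higher for CCl4 in Tom+, 4 higher in the sums and 2 higher in the interaction. Fitting the 6 libraries compared alone gave 0 higher and 2 lower for CCl4 in Tom-. In the sums the call count was 1 without the filter and 5 as the average of both fractions without summing. Without the 2 oil libraries whose reporter goes against the label, CCl4 in Tom- gave 0 higher and 3 lower, or 8 lower without the fold threshold, and CCl4 in Tom+ gave 5 higher without the fold threshold. No other alternative moved a count by over 1.5 times. For DESeq2, the block between treatments, the 6 libraries alone, no filter and the average of fractions, the share of all genes was not counted.

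Leaving out each library in turn gave 0 to 1 called higher in the CCl4 fractions, 0 to 2 higher and 1 to 3 lower for CCl4 in Tom-, 1 to 8 higher for CCl4 in Tom+, 1 to 3 higher in the sums and 0 to 3 higher in the interaction. The 8 came without Tom+ oil library 3 and the 1 without Tom+ CCl4 library 3. All other counts stayed at 0. No share of all genes was counted in these refits. Between treatments, same-numbered libraries correlated at 0.00899 to 0.0483 in Tom- and at 0.0182 to 0.226 in Tom+. The 0.226 was for library 3, above the 0.187 of CCl4 pair 2 and the 0.205 of oil pair 1 within a treatment. What same-numbered libraries of the 2 treatments share was not tested. A fit with that number as a block added Fgf21 and Vnn1 to the calls in Tom- and Acot1, Pdk4 and Fgf21 to those in Tom+. For the 91 combinations of a gene and a comparison past the adjusted p with or without the block, none of 1430 values under the alternatives changed sign, 1349 stayed on the same side of the thresholds, 55 came past them and 26 fell short. The cause of these shifts was not tested. A total of 3 libraries a group limits what can be called. Fgf21, at 14 to 143 counts, had the least depth.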
